A study of Mus musculus with 6 samples.

Results

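Tropomyosins and the proteins that cap the pointed end of actin filaments were followed as a group of 9 genes, chosen by name as the family members known from muscle and non-muscle cells. Of these, 8 had a row in the count table of 20654 genes, namely *Tpm1*, *Tpm2*, *Tpm3*, *Tpm4*, *Tmod2*, *Tmod3*, *Lmod2* and *Lmod3*, and *Tmod1* was not analysed here. RNA-seq was performed on muscle stem cells (MuSCs) of C57BL/6 mice, with 3 control libraries and 3 libraries of *Piezo1* cKO, in which the gene of the mechanosensitive ion channel PIEZO1 was targeted. The study gives the genotypes as *Piezo1*+/+; *Pax7*CreERT2/+ for the controls, which the labels call wild type, and *Piezo1* flox/flox; *Pax7*CreERT2/+ for the cKO, so that both groups carried the tamoxifen-inducible Cre recombinase expressed from *Pax7*, a gene active in MuSCs. The cells were sorted as VCAM1+, CD31-, CD45- and Sca1-, and cultured for 3 d in growth medium on Matrigel with 1 µM 4-OH TMX, the active form of tamoxifen, in both groups. The study's methods also give tamoxifen injections of the mice for its ex vivo experiments. The age and sex of the mice were not given in the sources used here.

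The control libraries held 740936, 931168 and 891531 counts, and the cKO libraries 810096, 726378 and 769295. Each count is a unique molecular identifier (UMI), a tag that marks 1 cDNA molecule, primed with oligo-dT and therefore read near the 3′ end of the transcript. Levels are given as CPM, counts scaled to a common library total after TMM normalisation, and a floor of 3 counts corresponded to 3.22 to 4.13 CPM. *Piezo1* itself had 11, 5 and 6 counts in the controls and 7, 12 and 9 in the cKO, and the groups overlapped (log2 fold change 0.42 ± 0.46 (SE), edgeR adjusted p = 0.791). Counts near the 3′ end do not show whether the targeted exons were lost, and the 3′ end of *Piezo1* overlaps *Ctu2* on the opposite strand, so these counts do not check the labels.

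Tropomyosins are coiled-coil proteins that polymerise along both sides of the actin filament and decide which other proteins, myosin and cofilin among them, can reach it. In striated muscle they hold the troponin complex, which uncovers the myosin binding sites when calcium rises. Each tropomyosin gene makes several isoforms by alternative promoters and exons. *Tpm2* (β-tropomyosin) is known mainly from muscle, *Tpm4* mainly from non-muscle cells, and *Tpm1* and *Tpm3* supply both kinds of isoform. Tropomodulins cap the pointed end of the filament, where subunits are lost, and their relatives the leiomodins nucleate and lengthen filaments in the sarcomere.

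Because tropomyosin genes are related and counts depend on which gene a read is assigned to, the ends of their coding sequences are shown here. *Tpm1* lies at chr9:67022590-67049406 on the minus strand of GRCm38, *Tpm2* at chr4:43514711-43523765 (minus), *Tpm3* at chr3:90072649-90100902 (plus) and *Tpm4* at chr8:72134975-72153142 (plus). A further row of the table, *Tpm3-rs7*, is an intronless copy of *Tpm3* at chr14:113314608-113316754 (plus). The lines give the last 60 coding bases, 5′ to 3′, of 1 annotated transcript per gene (for *Tpm1* and *Tpm2* the transcript most like *Tpm4*, for *Tpm3* the transcript most like the copy), and capitals mark bases that differ from *Tpm3*.
Tpm3: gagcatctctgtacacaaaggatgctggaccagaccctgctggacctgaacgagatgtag
Tpm3-rs7: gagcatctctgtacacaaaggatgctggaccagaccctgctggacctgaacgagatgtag
Tpm1: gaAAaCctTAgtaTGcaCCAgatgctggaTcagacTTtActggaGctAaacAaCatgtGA
Tpm4: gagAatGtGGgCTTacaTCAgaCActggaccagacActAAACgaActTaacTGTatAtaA
Tpm2: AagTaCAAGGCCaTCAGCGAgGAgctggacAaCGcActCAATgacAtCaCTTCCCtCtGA
The copy had 0 differences from *Tpm3* in this stretch, whereas *Tpm1* had 20, *Tpm4* had 24 and *Tpm2*, whose transcript ends in another exon, had 37. Over the last 600 coding bases, identity between the 4 tropomyosin genes ran from 68.8% (*Tpm2* and *Tpm3*) to 77.7% (*Tpm1* and *Tpm4*). *Tpm3* and *Tpm3-rs7* shared 744 of 747 coding bases, and 2089 of 2108 aligned bases of the whole transcripts (99.1%). How reads that map to both were treated is not given in the sources used here, so the division of counts between *Tpm3* and its copy is uncertain.

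No member passed the test across all genes. Of the 8 genes in the table, 6 passed the filter on low counts, and 0 of these 6 were called by edgeR or by DESeq2 (adjusted p under 0.05). Among all 8551 genes tested, 0.468% were called higher and 0.316% were called lower in *Piezo1* cKO. The median log2 fold change was -0.09 over the 6 members, or 0.0038 after cyclic loess normalisation, and 0.0023 over all genes tested. *Tpm2* and *Tmod3* were higher in every cKO library than in every control library, and *Tpm3* and *Tpm4* were lower. Of all genes tested, 8.2% were separated in this way with higher cKO values and 8.31% with lower values.

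*Tpm2* had the largest fold change of the 6 tested members in the edgeR fit. Its level was 312, 106.5 and 270.3 CPM in control libraries 1 to 3, and 351, 435 and 374 CPM in cKO libraries 1 to 3. The controls were spread widely, with control 2 far below the others, whereas the cKO libraries lay close together above them. The mean was 229.7 ± 109 CPM in the controls and 387 ± 43.4 CPM in the cKO (SD, n = 3 each). The fold fitted by edgeR was 1.70, a log2 fold change of 0.77 ± 0.42 (SE), with a 95% interval from -0.36 to 1.89 and an edgeR adjusted p of 0.579. The exact two-sided permutation test gave p = 0.1, the smallest that 3 libraries against 3 allow. *Tpm2* was called under limma-voom (log2 fold change 0.90, adjusted p = 0.0491) and after cyclic loess normalisation with limma-trend (0.97, adjusted p = 0.0451), but under no other setting tried. Without control 2 its log2 fold change was 0.42 (edgeR adjusted p = 0.206). In these bulk samples, fewer cells of a type and less RNA per cell cannot be told apart.

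**Figure D1:**
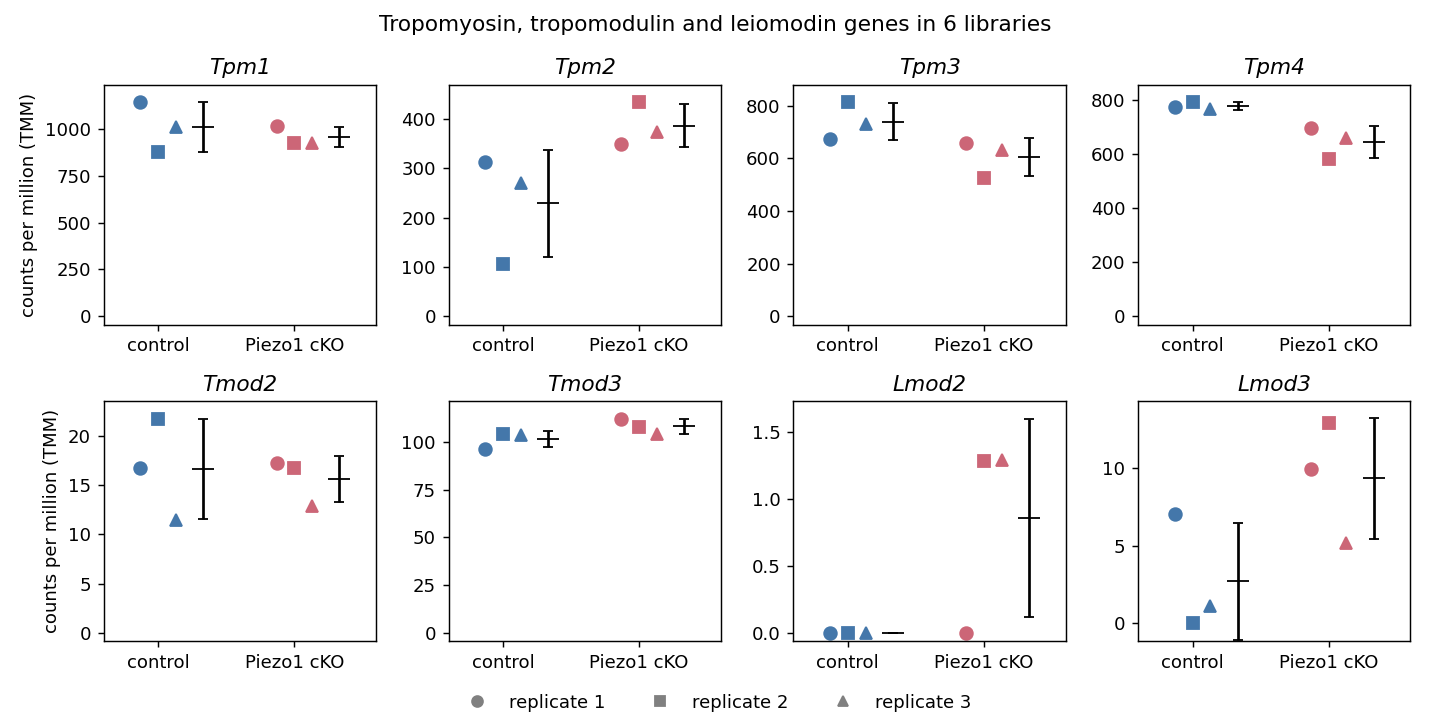
Level of each of the 8 genes in CPM after TMM normalisation (vertical axes, linear, each with its own range) in the 3 control (blue) and 3 *Piezo1* cKO (red) libraries, with the marker shape giving the replicate and the black bars the mean ± SD. *Tpm2* was spread from 106.5 to 312 CPM in the controls and from 351 to 435 CPM in the cKO, and *Tpm4* from 765 to 791 CPM and from 580.3 to 694 CPM.

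*Tpm4*, a tropomyosin of stress fibres and the cell cortex, was 772, 791 and 765 CPM in the controls and 694, 580.3 and 658 CPM in the cKO. The controls agreed closely, and every cKO library lay below them, cKO 2 farthest. The means were 776 ± 13.6 and 644 ± 58.1 CPM (SD, n = 3 each), with a log2 fold change of -0.27 ± 0.14 (SE), a 95% interval from -0.54 to 0.01 and an edgeR adjusted p of 0.430. The antisense genes *Gm26586* and *Gm16091* overlap *Tpm4*, and each had at most 1 count in any library. Around the other members, *Car9*, 982 bp from *Tpm2* on the opposite strand, had 1 count in all, and the pseudogene *Gm48789* inside *Tmod3* had at most 1 count in any library. On the strand of *Tpm3*, *4933434E20Rik* lies 4302 bp before it (35 to 49 counts) and *Nup210l* 3230 bp after it (0 to 2 counts).

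*Tpm3* was 672, 814 and 732 CPM in the controls and 658, 524 and 633 CPM in the cKO. The groups did not overlap, but control 1 and cKO 1 were almost level. The means were 739 ± 71.2 and 605 ± 71.4 CPM (SD, n = 3 each), with a log2 fold change of -0.29 ± 0.14 (SE) and a 95% interval from -0.57 to -0.01. Its unadjusted edgeR p was 0.0392 and its adjusted p 0.393. *Tpm3* was the 1 member with an unadjusted p under 0.05 in the lower direction, as had 5.78% of all genes tested, and 0 members had one in the higher direction, as had 6.14%. Under DESeq2 both *Tpm3* and *Tpm4* had an unadjusted p under 0.05 (adjusted p = 0.433 and 0.390). After cyclic loess normalisation their log2 fold changes shrank to -0.11 and -0.09.

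The copy *Tpm3-rs7* had 108, 120 and 120 counts in the controls and 84, 83 and 82 in the cKO. It too was lower in every cKO library, by a log2 fold change of -0.40 ± 0.16 (SE, edgeR adjusted p = 0.241). When its counts were added to those of *Tpm3*, an alternative chosen after seeing the data, the log2 fold change of *Tpm3* was -0.31 (edgeR adjusted p = 0.356). *Tpm3* and *Tpm4* kept nearly the same ratio in both groups. The log2 ratio of their counts was -0.07 ± 0.12 in the controls and -0.09 ± 0.05 in the cKO (SD, n = 3 each), a pair also chosen after seeing the values.

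*Tpm1*, the α-tropomyosin gene, was 1147, 880.3 and 1012 CPM in the controls and 1020.1, 926 and 929 CPM in the cKO. All 3 cKO values fell within the range of the controls. The means were 1013 ± 133 and 959 ± 53.2 CPM (SD, n = 3 each), and the log2 fold change of -0.08 ± 0.14 (SE, edgeR adjusted p = 0.898) turned positive, 0.15, after cyclic loess normalisation and 0.02 without control 1. Its 95% interval ran from -0.36 to 0.21. The annotation gives *Tpm1* 16 coding transcripts with 12 different 3′ ends, and *Tpm3* 7 with 7, and the table gives 1 count per gene, so that a shift between muscle and non-muscle isoforms of the same gene would not appear in these values.

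The make-up of the tropomyosin transcripts was also compared within each library, a measure that does not depend on normalisation between libraries. The 4 genes together held 2073, 2385 and 2416 counts in the controls and 2205, 1916 and 2010 in the cKO, from 0.256% to 0.280% of all counts. Their summed level was 2758 ± 157 CPM in the controls and 2594 ± 129 CPM in the cKO (SD, n = 3 each), and the groups overlapped (exact permutation test, two-sided, p = 0.3).

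*Tpm2* made up 10.8% (95% Clopper-Pearson interval 9.46 to 12.2), 4.11% (3.35 to 4.98) and 9.73% (8.57 to 11.0) of the tropomyosin counts in controls 1 to 3. In cKO 1 to 3 it made up 12.9% (11.5 to 14.4), 17.6% (16.0 to 19.4) and 14.4% (12.9 to 16.0). Every cKO share was above every control share, although the intervals of control 1 and cKO 1 overlapped. The mean share was 8.20% ± 3.58 in the controls and 15.0% ± 2.43 in the cKO (SD, n = 3 each; exact permutation test, two-sided, p = 0.1). The difference of 6.79 percentage points was 6.56 when counts were divided by transcript length, and 4.74 without control 2. The intervals cover counting error only.

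The share of *Tpm4* went the other way, from 26.6%, 30.5% and 27.5% in the controls to 25.5%, 23.5% and 25.4% in the cKO, again without overlap. Its mean was 28.2% ± 2.06 and 24.8% ± 1.09 (SD, n = 3 each; exact permutation test, two-sided, p = 0.1), a difference of -3.41 percentage points that was -2.25 without control 2. *Tpm3* made up 27.0% ± 4.16 and 23.3% ± 1.75, with overlapping groups (exact permutation test, two-sided, p = 0.3, n = 3 each), and its difference of -3.70 percentage points was -1.48 without control 2. *Tpm1* held 36.6% ± 2.78 and 37.0% ± 0.982 (exact permutation test, two-sided, p = 1, n = 3 each). The log2 ratio of *Tpm2* to *Tpm4* counts was -1.31, -2.89 and -1.50 in the controls and -0.98, -0.42 and -0.81 in the cKO, a difference of 1.16 between the means, which was 0.66 without control 2. This pair was chosen after both genes were seen to separate the groups in opposite directions, so the ratio is a description.

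**Figure D2:**
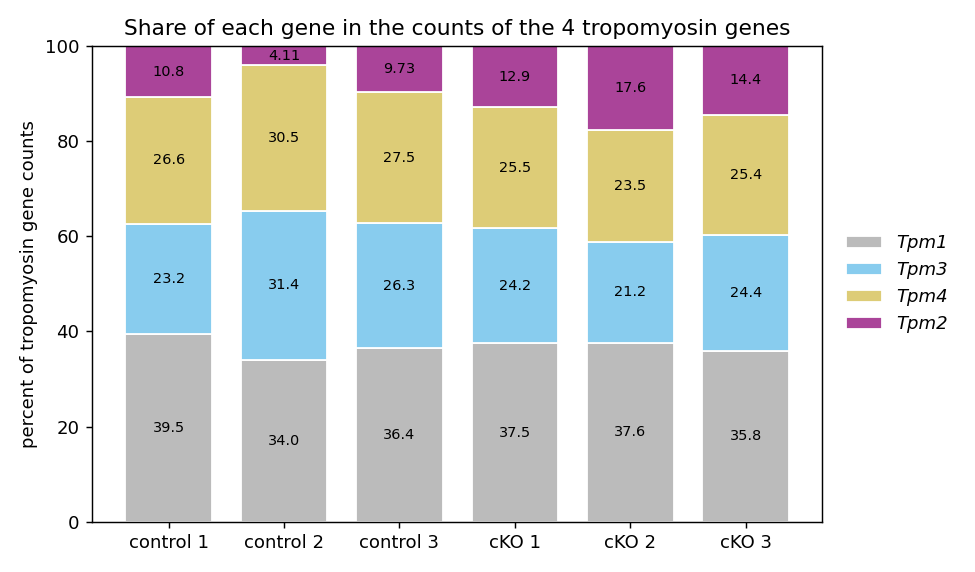
Percent of the summed counts of *Tpm1*, *Tpm2*, *Tpm3* and *Tpm4* taken by each gene in each of the 6 libraries (bars, stacked to 100). The purple *Tpm2* segment was 4.11% to 10.8% in the controls and 12.9% to 17.6% in the cKO.

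Among the capping proteins, *Tmod3*, the widely expressed tropomodulin at chr9:75497707-75559657 (minus), had values close together in both groups. It was 96.6, 104 and 104 CPM in the controls and 112, 108 and 105 CPM in the cKO. The cKO values lay just above the controls, by less than 1 CPM between the nearest libraries. The log2 fold change was 0.09 ± 0.16 (SE, edgeR adjusted p = 0.897), with a 95% interval from -0.23 to 0.42. *Tmod2*, known mainly from neurons and located beside it at chr9:75565621-75611325 (minus), had 12, 20 and 10 counts in the controls and 14, 13 and 10 in the cKO. The groups overlapped, and the log2 fold change of -0.10 ± 0.36 (SE, edgeR adjusted p = 0.954) was 0.05 in libraries thinned to the smallest total and 0.17 without control 2.

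The leiomodins were near the floor and did not pass the filter. *Lmod3*, which nucleates thin filaments in skeletal muscle (chr6:97238534-97252759, minus), had 5, 0 and 1 counts in the controls and 8, 10 and 4 in the cKO. The groups overlapped at control 1 and cKO 3. Summed over the libraries it had 6 counts in the controls and 22 in the cKO, a ratio, scaled to the effective library totals, of 3.89 with a counting interval from 1.53 to 11.7, and the exact two-sided permutation test of its CPM gave p = 0.2 (n = 3 each). Kept in the edgeR fit regardless of the filter, an alternative chosen after seeing the data, it had an adjusted p of 0.198, and with no filter 0.255. *Lmod2*, the leiomodin known mainly from the heart (chr6:24597762-24605414, plus), had 0 counts in the controls and in cKO 1, and 1 count in each of cKO 2 and cKO 3.

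Summed by class, the genes taken as the muscle class (*Tpm2*, *Lmod2* and *Lmod3*) reached 319, 106.5 and 271 CPM in the controls and 361, 449 and 381 CPM in the cKO. Nearly all of this was *Tpm2*, so the sum adds little to the values of that gene. The annotation gives *Tpm2* 4 coding transcripts with 3 different 3′ ends, and counts per gene do not tell its isoforms apart. The sum is therefore not a measure of striated muscle isoforms. The sum of *Tpm3*, *Tpm4* and *Tmod3*, taken as the class of widely expressed genes although *Tpm3* also supplies muscle isoforms, was 1541, 1709 and 1600.1 CPM in the controls and 1465, 1212 and 1395 CPM in the cKO. The means were 232 ± 112 and 397 ± 46.4 CPM for the muscle class and 1617 ± 85.7 and 1357 ± 130.5 CPM for the widely expressed class (SD, n = 3 each). Neither class overlapped between the groups (exact permutation test, two-sided, p = 0.1 for each), and the second sum mostly repeats the values of *Tpm3* and *Tpm4*. Without control 2 the difference between the means of the muscle class fell from 164 to 103 CPM.

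Markers of myogenic cells and of other cell types were read in the same libraries. The cultures carried the genes of activated MuSCs and myoblasts in every library: *Myod1*, the leading gene of that list, had 823 to 1225 counts and *Pax7* had 5 to 26, and the 8 genes of the list summed to 2256 to 2850.3 CPM with overlapping groups. None of these 8 was called by edgeR in the filtered table. Markers of differentiating myocytes (7 in the table of 8 listed, 4 tested, 0 called) did separate the groups in their sum. Their sum was 241, 52.2 and 176 CPM in the controls and 274, 887 and 383 CPM in the cKO. *Myog*, the transcription factor of early differentiation and the most abundant gene of the list, had 40, 3 and 45 counts in the controls and 63, 203 and 92 in the cKO. With no filter, edgeR called *Myh3* (embryonic myosin, adjusted p = 1.54e-08) and the fusion genes *Mymk* (0.00419) and *Mymx* (0.0332) of this list, all higher in the cKO. *Myh3* (1, 0 and 0 counts against 9, 35 and 4) and *Mymx* (2, 0 and 1 against 3, 13 and 7) were under the filter. In the filtered table *Mymk* had an edgeR adjusted p of 0.370. Of the same list, *Ttn* (79, 32 and 64 counts against 54, 130 and 79, edgeR adjusted p = 0.744) and *Myh8* (at most 1 count in any library) overlapped between the groups. The fit with no filter also called *Sdc4* (syndecan-4, a surface proteoglycan) of the MuSC list (0.0327), lower in every cKO library. In CPM, *Vcam1* of the MuSC list was also lower in every cKO library and *Cdh15* (M-cadherin) higher, with log2 fold changes of -0.45 and 0.53 (edgeR adjusted p = 0.185 and 0.118 in the filtered table). With no filter 0.426% of 19247 genes were called higher and 0.244% lower.

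**Figure D3:**
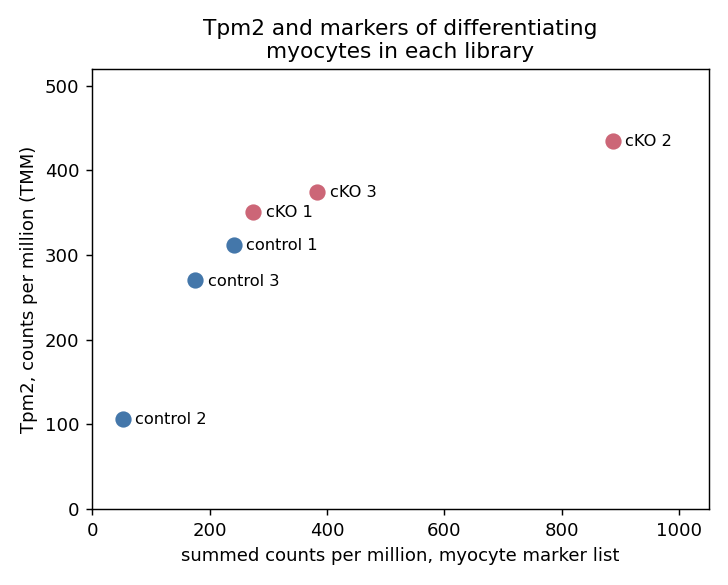
*Tpm2* in CPM after TMM normalisation (vertical axis) against the summed CPM of the 7 markers of differentiating myocytes (horizontal axis), with 1 point per library, controls in blue and *Piezo1* cKO in red. Control 2 was lowest on both axes (52.2 and 106.5 CPM) and cKO 2 highest on both (887 and 435 CPM).

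The libraries stood in the same order for *Tpm2* and for this marker sum. Control 2 was lowest in both, followed by control 3, control 1, cKO 1, cKO 3 and cKO 2. The part of differentiation state in the difference of *Tpm2* between the groups was not tested. Within the controls alone *Tpm2* ranged from 106.5 to 312 CPM, a wider span than that between the lowest and highest cKO library.

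The smooth muscle and pericyte list (9 of 9 in the table, 0 called) summed to 199.96 to 552 CPM in the controls and 497 to 620.2 CPM in the cKO, with overlapping groups and with *Acta2* as its leading gene (136, 66 and 368 counts against 274, 378 and 251), but the defining marker *Myh11* was 0 in all libraries except cKO 2, which had 1 count. Its members *Cspg4* (28, 25 and 25 counts against 39, 32 and 54, edgeR adjusted p = 0.143), *Rgs5* (0, 0 and 1 against 2, 4 and 6) and *Mcam* (4, 4 and 2 against 9, 5 and 6), named after their values were seen, were higher in CPM in every cKO library, whereas the other 6 genes of the list overlapped, *Pdgfrb* (3, 3 and 10 against 2, 7 and 3) and *Smtn* (log2 fold change -0.07) among them. The part of these genes in the values of *Tpm2* was not tested. The fibroblast list (7 of 8 in the table) summed to 193 to 341 CPM and 262 to 299.8 CPM, led by *Col3a1*, with *Pi16* at 0 in all libraries. *Dcn*, a proteoglycan of fibroblasts and the 1 gene of that list called, was lower in the cKO (18, 23 and 37 counts against 8, 5 and 3; log2 fold change -2.17 ± 0.38 (SE), edgeR adjusted p = 0.000391), whereas *Ly6a*, of the same list, had 2, 2 and 3 counts against 5, 8 and 9 and was not tested. The endothelial list (5 of 6 in the table, led by *Tek*) stayed at or under 19.4 CPM, the leukocyte list (2 of 7, led by *Cd68*) at or under 26.1 CPM, and the erythroid list (2 of 6, led by *Hba-a2*) at or under 1.29 CPM.

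The partners of tropomyosins and tropomodulins on the actin filament were read from the same fit, in lists of 73 genes, of which 70 were in the table and 54 were tested. edgeR called 3 of the 54 higher and 0 lower in *Piezo1* cKO, beside 0.468% and 0.316% of all genes, and DESeq2 called 2. *Tnni2*, among those called by edgeR, and *Tnnc1* and *Actc1* passed the filter on low counts only through the cKO libraries. Such genes can enter the test only where they are higher in the cKO, so these counts are a description.

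The troponins, the calcium switch that sits on tropomyosin in striated muscle, had a median log2 fold change of 2.06 over the 6 subunits tested (7 in the table), beside 0.0023 over all genes. The median was 1.21 over the 3 subunits with at least 10 counts in every library, of which 0 were called by edgeR. *Tnni2* and *Tnnc1* passed the filter on low counts only through the cKO libraries, and such a gene can enter the test only where it is higher in the cKO, so the median and counts over the 6 are given as a description. All 6 values were positive, 5 of the 6 were higher in every cKO library than in every control (8.2% of all genes tested), and 1 was called. This was *Tnni2*, the fast inhibitory subunit, which had 6, 2 and 4 counts in the controls and 16, 24 and 12 in the cKO (log2 fold change 2.16 ± 0.45 (SE), edgeR adjusted p = 0.00459). *Tnnt1*, the slow tropomyosin-binding subunit, had 44, 11 and 28 counts against 58, 147 and 104 (1.96 ± 0.66, adjusted p = 0.379, or 0.644 with no filter). Its fast counterpart *Tnnt3* had 64, 27 and 60 against 102, 144 and 84 (1.19 ± 0.42, adjusted p = 0.377, or 3.37e-07 with no filter). The groups did not overlap for either, and control 2 was again the lowest library for both. *Tnnt2*, the cardiac and embryonic form, had 171, 215 and 182 counts against 182, 189 and 228, with overlapping groups (0.16 ± 0.14, adjusted p = 0.703).

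Among the other genes of the sarcomeric thin filament (5 tested of 10 in the table), 0 were called by edgeR and the median log2 fold change was 0.72. *Actc1*, among the 5, passed the filter only through the cKO libraries, so the median is a description. This median was 1.20 under DESeq2 and 1.32 with no filter (10 genes each), and 0.65 with at least 10 counts in every library (4 genes). Of the 5, 3 had an unadjusted p under 0.05, *Acta1* and *Xirp1* higher and *Lasp1* lower. Of all genes tested, 6.14% had such a p in the higher and 5.78% in the lower direction. *Acta1*, the skeletal α-actin on which muscle tropomyosin lies, had 46, 57 and 80 counts in the controls and 133, 353 and 205 in the cKO. The lowest cKO library was above the highest control (log2 fold change 2.01 ± 0.49 (SE), edgeR adjusted p = 0.241), and DESeq2 called it (adjusted p = 0.00485). *Xirp1*, an actin-binding protein of muscle attachment sites, had 58, 37 and 49 counts against 82, 80 and 64 (0.72 ± 0.20 (SE), edgeR adjusted p = 0.0560, or 0.0341 with no filter). *Lasp1*, a nebulin-family protein of non-muscle cells, had a log2 fold change of -0.35 ± 0.15 (SE, edgeR adjusted p = 0.320).

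The cytoplasmic actins with their barbed-end cappers, monomer-binding and severing proteins (18 tested, 0 called by edgeR or DESeq2) had a median log2 fold change of -0.03. It was 0.05 with total counts only, a setting that moved the median of all genes by 0.07, and 0.06 after cyclic loess normalisation. Of the 18, 3 had an unadjusted p under 0.05, beside 6.14% of all genes tested in the higher and 5.78% in the lower direction. *Actb*, *Pfn1* (profilin) and *Tmsb4x* (thymosin β4, which holds actin monomers) had log2 fold changes of -0.33, -0.37 and -0.26, with edgeR adjusted p of 0.445, 0.344 and 0.520. Of these, *Pfn1* had an unadjusted p under 0.05 and did not overlap between the groups. The other genes with such a p, named after their values were seen, were *Cap2*, an actin recycling protein, and *Pfn2*, a profilin of neurons and other cells, with positive log2 fold changes of 0.80 and 0.58 (edgeR adjusted p = 0.133 and 0.225) and no overlap. Among the side-binding and crosslinking proteins (11 tested, median -0.03, or 0.04 with total counts only and 0.10 after cyclic loess normalisation), *Actn3*, the α-actinin of fast muscle fibres, was the 1 called, and 3 had an unadjusted p under 0.05 (6.14% of all genes tested higher and 5.78% lower). *Actn3* rose from 42, 44 and 70 counts in the controls to 106, 125 and 107 in the cKO (log2 fold change 1.20 ± 0.18 (SE), edgeR adjusted p = 1e-05). The others, named after their values were seen, were *Actn1*, a non-muscle α-actinin that was lower in every cKO library (log2 fold change -0.46, edgeR adjusted p = 0.122), and *Cnn2*, a calponin, with overlapping groups (0.43, adjusted p = 0.199). The 3 most abundant genes of that list, *Tagln2*, *Actn4* and *Cnn3*, had log2 fold changes of -0.16, -0.16 and 0.07.

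The spectrin membrane skeleton, whose short actin filaments tropomodulin caps, had a median log2 fold change of 0.23 over 8 genes tested. Of these, 5 had an unadjusted p under 0.05, all but *Epb41* in the higher direction. Of all genes tested, 6.14% had such a p in the higher and 5.78% in the lower direction. *Epb41l3*, a protein 4.1 family member that links spectrin to the membrane, was called, with 20, 11 and 17 counts in the controls and 28, 29 and 43 in the cKO (log2 fold change 1.13 ± 0.29 (SE), edgeR adjusted p = 0.0293), but it was not called without control 2, control 3, cKO 2 or cKO 3, under limma-voom or cyclic loess, or in thinned libraries, and DESeq2 gave it no adjusted p. *Epb41*, the protein 4.1 of red cells and other tissues, named after its values were seen, went the other way, with 24, 29 and 29 counts in the controls and 16, 9 and 19 in the cKO (log2 fold change -0.81, edgeR adjusted p = 0.201). *Sptan1*, *Add1* and *Epb41l2*, the most abundant of this list, had log2 fold changes of 0.11, 0.35 and 0.36. The regulators SRF and MRTF switch on actin and tropomyosin genes when monomeric actin is used up. Their list also holds MEF2 and TEAD factors, and the 6 genes tested were *Srf*, *Mrtfa*, *Mef2a*, *Mef2d*, *Tead1* and *Tead4*. The median is thus not that of SRF and MRTF alone. Of the 6, 0 were called and the median was -0.01, or 0.12 over 8 genes under DESeq2 and with no filter. *Mef2a*, *Srf* and *Mef2d* had log2 fold changes of 0.45, -0.12 and 0.10. *Mef2a* was the 1 gene of this list with an unadjusted edgeR p under 0.05 (edgeR adjusted p = 0.186). It was higher in every cKO library than in every control, as were 8.2% of all genes tested. The related cappers *Tmod4* and *Lmod1* had 1 count each over all libraries.

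**Figure D4:**
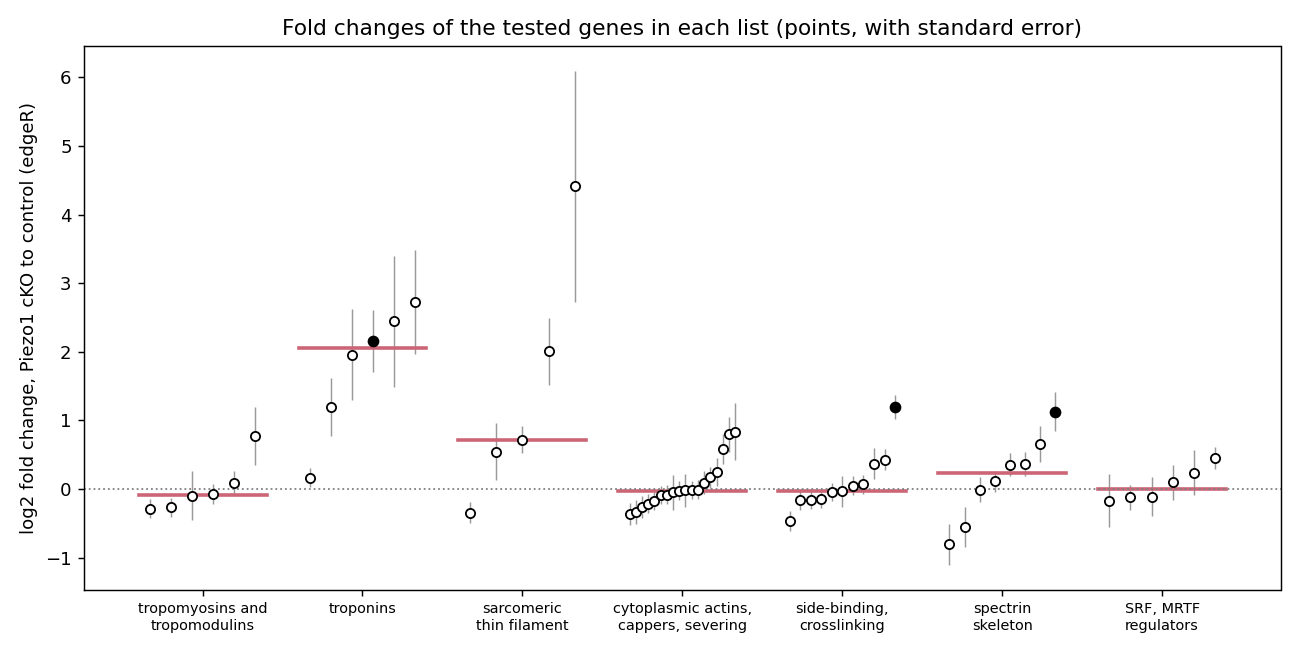
Log2 fold change of *Piezo1* cKO to control in edgeR (vertical axis) for every tested gene of each list (columns), as points with their standard errors, filled where called, with a red bar at the median of the list and a dotted line at the median of all genes tested. The tropomyosins and tropomodulins had a median of -0.09 and 0 filled points, and the troponins a median of 2.06 and 1 filled point.

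Promoters were read from RefSeq windows of GRCm38.p6, which matched 6 of the 8 genes in the table. In the 250 bases before each RefSeq transcript start, both strands were searched for the E-box (CANNTG, bound by MYOD1 and its relatives), the GC box (GGGCGG), the MCAT element (CATTCC) and the CArG box bound by SRF. These letters were found in 66.2%, 32.7%, 12.6% and 1.47% of 32851 windows of the same length, and no matches of different motifs overlapped in the windows of the members. These starts can lie downstream of the gene starts given above, which are those of GENCODE: the whole *Tpm4* window and most of the *Tpm2* window, with its GC boxes, fall within the GENCODE gene. The stretches shown lie outside every annotated exon, 5′ to 3′, with matches in capitals, for *Tpm2*, 1 of the members with higher values in every cKO library, and *Tpm4*, 1 of those with lower values, although neither was called.
Tpm2, chr4:43523766-43523804 (minus): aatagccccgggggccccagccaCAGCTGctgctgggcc
Tpm4, chr8:72135050-72135258 (plus): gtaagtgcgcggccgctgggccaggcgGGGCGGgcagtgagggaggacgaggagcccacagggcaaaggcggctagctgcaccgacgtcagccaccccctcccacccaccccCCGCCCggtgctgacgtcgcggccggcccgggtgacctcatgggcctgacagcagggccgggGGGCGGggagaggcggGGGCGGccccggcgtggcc
The *Tpm2* window held 1 E-box, from -227 to -222, and 2 GC boxes outside the stretch shown, with a GC content of 69.6%. A further *Tpm2* stretch outside the exons (chr4:43523596-43523700, 105 bases), which held 1 GC box and no E-box, is not shown. The *Tpm4* window held 5 GC boxes, 4 of them in the stretch shown, and no E-box, with a GC content of 78.8%, and the median over all windows was 52.4%. *Tpm1* had 1 E-box, 1 GC box and 1 MCAT element. Each of 2 windows of *Tpm3* had 1 E-box, and 1 of these windows also had 1 GC box. The windows of *Tmod2* held 2 and 1 E-boxes and that of *Lmod2* held 1. No window of the 6 genes held a CArG box. A match is a description of letters, and binding was not measured.

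The genes whose levels followed those of *Tpm2* and *Tpm4* most closely over the 6 libraries were listed by Pearson's r of log2 CPM, as a description. For *Tpm2* they were *Igfbp5* (0.996), *Kazald1* (0.996), *Ak1* (0.993) and *Tox2* (0.991), and for *Tpm4* they were *Nudc-ps1* (0.997), *Gpd2* (0.994), *Cct7* (0.991) and *Cnbp* (0.991). *Igfbp5*, an insulin-like growth factor binding protein, had 116, 64 and 137 counts in the controls and 153, 166 and 147 in the cKO, with control 2 lowest as for *Tpm2*. *Cnbp*, a nucleic acid binding protein, had 1022, 1317 and 1176 counts against 937, 736 and 866. Among 8545 genes searched, 91 and 92 had an r over 0.95 with *Tpm2* and *Tpm4*. Between the members, r was 0.93 for *Tpm3* and *Tpm4*, -0.86 for *Tpm2* and *Tpm3* and -0.71 for *Tpm2* and *Tpm4*.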

How the data were processed

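Per the labels and the study's methods, 500 pg of total RNA per library was reverse transcribed with barcoded oligo-dT primers and amplified by 12 PCR cycles. The submitters' processing notes name STAR 2.7.9a, featureCounts 2.0.1, UMI-tools 1.1.1 and GRCm38. The deposited values are UMI counts per gene, not normalised, with 1 column per library. The settings for strand and for reads that map to several places are not given in the sources used here.

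In R 4.3.3, edgeR 4.0.16 (TMM, quasi-likelihood with robust estimation) was fitted to the 8551 genes that passed filterByExpr (minimum count 10). Genes with a Benjamini-Hochberg adjusted p below 0.05 were called. *Piezo1* was kept whatever its counts. Single values were compared by exact two-sided permutation, for which 0.1 is the smallest p. The labels do not tie libraries to separate mice, so p-values measure the spread between these samples, which may be technical. Intervals and floors cover counting error only, except those of fold changes. The calculations were tested on simulated data. Pairs of libraries of 1 group had a chi-square per degree of freedom from 1.64 to 2.61, so none was a repeat deposit.

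The members and the gene lists were chosen with earlier results of these data known. Named genes were the members, genes of a list called by edgeR or DESeq2, the 3 most abundant of each list, the leading and defining cell type markers, the 4 genes most like *Tpm2* and *Tpm4*, and genes overlapping or next to a member. Further genes, *Vcam1*, *Cdh15* and *Ly6a* among them, were named after their values were seen. The results of 1 marker list are not reported here. Alternatives tried were DESeq2 1.42.0 at its defaults, limma 3.58.1 with voom or with cyclic loess (3 iterations, log2 CPM with a prior count of 2), other scalings (size factors, total counts), other filters (none, or 10 counts in every library), a replicate block, thinning to equal totals, a threshold of 0.1 and leaving out each library. Transcript and promoter sequences came from GENCODE and RefSeq (GRCm38), compared with Biopython 1.88.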

Additional observations from a re-analysis of the deposited data

How the results depend on the processing

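The number of genes called among all tested was 67 (40 higher, 27 lower, 59.7% higher), and was 27 under DESeq2 (12 higher, 15 lower, 44.4% higher), 129 with no filter, 124 at an adjusted p under 0.1, and from 6 (without cKO 2) to 155 (without cKO 1) with 1 library left out. With total counts only, 71.4% of the calls were higher. The median of all genes moved by at most 0.07 on the log2 scale between settings.

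The number of members called was 0 except under cyclic loess and limma-voom, where it was 1, *Tpm2*. *Tpm2*, *Tpm3*, *Tpm4* and *Tmod3* kept their direction under every setting run, with log2 fold changes from 0.42 to 1.05, -0.35 to -0.11, -0.32 to -0.09 and 0.06 to 0.16. The log2 fold change of *Tpm1* reversed to 0.15 after cyclic loess and ranged from -0.17 to 0.022 with 1 library left out. That of *Tmod2* reversed to 0.055 in thinned libraries and ranged from -0.32 to 0.17 with 1 left out. The difference in the log2 ratio of *Tpm2* to *Tpm4* ranged from 0.66 to 1.46 with 1 library left out, an alternative chosen after seeing the data. The difference in share of *Tpm1* ranged from -1.01 to 1.76 percentage points with 1 library left out, and the other share differences kept their sign.

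Of the troponins, where 1 was called, 5 were called under cyclic loess and limma-voom, 3 with no filter, 2 with the replicate block (*Tnni2* and *Tnnc1*, edgeR adjusted p = 0.0252 and 0.00457), and 0 under DESeq2, which gave no adjusted p to *Tnnc1*, *Tnni1* and *Tnni2*, and with at least 10 counts in every library, where only 3 were tested, and 1 to 2 with a library left out. Their median was 1.21 with at least 10 counts in every library and 1.61 to 2.62 with a library left out. Of the sarcomeric thin filament genes, where 0 were called, 2 were called under cyclic loess and limma-voom, 1 with DESeq2 size factors, total counts, DESeq2, no filter, at least 10 counts in every library, the replicate block and an adjusted p under 0.1 (with the block *Acta1*, edgeR adjusted p = 0.00401), and 0 to 2 with a library left out. Their median was 1.20 under DESeq2, 1.32 with no filter and 0.72 to 1.36 with a library left out, where 10, 10 and 6 genes were tested in place of 5 (without control 2 the median of 6 genes was 0.72). The spectrin list lost its 1 call, leaving 0, under cyclic loess, DESeq2 (no adjusted p given), limma-voom, the replicate block and thinning, and had 0 to 1 with a library left out. With a library left out, the cytoplasmic actin list had 0 to 1 calls and the side-binding list 1 to 2. The median of the cytoplasmic actin list was 0.058 after cyclic loess, and that of the SRF list was 0.12 under DESeq2 and with no filter, 0.11 with at least 10 counts in every library and -0.057 to 0.14 with a library left out. The cause of these shifts was not tested.

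Libraries with the same replicate number did not deviate together (correlations of -0.14, -0.20 and 0.01, n = 3 numbers). With 3 numbers this check cannot decide whether such libraries were prepared together. With the replicate block 0 members were called and *Tpm2* had a log2 fold change of 0.84 (edgeR adjusted p = 0.699). *Lmod2* stayed under the floor of 3 counts in every library, and *Lmod3* and *Tmod2* had at most 20 counts in any library, so their values rest on few counts.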

Other observations

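Several low-count genes of the thin filament did not pass the filter or had wide errors, and were chosen here after their values were seen. *Klhl40*, known to stabilise leiomodin 3 and nebulin, had 5, 2 and 10 counts in the controls and 10, 16 and 17 in the cKO. Its relative *Klhl41* had 2, 1 and 0 counts against 5, 6 and 5. For *Klhl41* every cKO library was above every control in counts, and for *Klhl40* cKO 1 had the same count as control 3. In CPM the groups did not overlap for *Klhl40* either, with 11.5 CPM in control 3 and 12.3 CPM in cKO 1. *Actc1*, the cardiac α-actin expressed early in muscle differentiation, had 6, 0 and 0 counts in the controls and 11, 96 and 21 in the cKO (log2 fold change 4.41 ± 1.69 (SE), edgeR adjusted p = 0.427). *Tnnc1*, the slow calcium-binding troponin, had 9, 6 and 11 counts against 25, 98 and 41 (2.72 ± 0.76, adjusted p = 0.272, or 8e-10 with no filter). *Actc1* and *Tnnc1* passed the filter only through the cKO libraries. cKO 2 was the highest library for *Actc1* and *Tnnc1*, as it was for *Tpm2*.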
